A study of Homo sapiens with 8 samples.

Results

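The genes described here are interferon-stimulated genes and cytoplasmic sensors of double-stranded RNA, measured in 8 stable lines of the human embryonic kidney cell line HEK293T. Members were fixed by name, as 39 genes in 9 groups by role, and 38 of them had a probe among the 19455 genes that could be named on the array. The remaining one, IFI27, was not matched to a probe, so its expression is not analysed here, and it enters only the counts of promoter sequence. Each line is a single clone carrying a stably integrated pcDNA6 plasmid, and each plasmid is represented by 2 clones. Empty vector #1 and #2 carry the plasmid without an insert. TET1-CDwt #2 and #5 express the catalytic domain of TET1, an enzyme that oxidizes methylated cytosine. MBD-TET1-CDwt #3 and #10 express this domain joined to the part of MBD2 that binds methylated CpG. MBD-TET1-CDmut #9 and #10 express the fusion with a catalytically inactive domain. All of the cells share the HEK293T background and the same growth medium, were obtained by selection with the antibiotic blasticidin S after transfection, and have no further treatment in the labels.

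Cells recognize viral RNA through a small set of helicases. RIG-I (RIGI) and MDA5 (IFIH1) bind double-stranded RNA in the cytoplasm and signal through MAVS on mitochondria, which leads to production of type I interferon. Secreted interferon activates a complex that contains STAT2 and IRF9, and this complex binds a short promoter sequence, the interferon-stimulated response element, in genes whose products restrict viruses. Loss of DNA methylation is known to awaken endogenous retroviral repeats in some tumor cells, whose RNA then triggers the same sensors, a response called viral mimicry. The comparisons below address whether the interferon-stimulated genes differed among the 4 constructs.

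The response element sits close to the start of many of these genes, and it is shown here for the members on which the results below turn and for the sensor gene IFIH1. The core that was searched, on both strands and counting overlapping matches, is GAAANNGAAA, where N is any base. The stretches are RefSeq sequence of build GRCh38.p14, 120 bases each, 5′ to 3′ on the gene's own strand, all before the annotated start, with the cores in capitals (as the reverse complement where the core lies on the other strand).
IFITM1, chr11:313920-314039, plus strand: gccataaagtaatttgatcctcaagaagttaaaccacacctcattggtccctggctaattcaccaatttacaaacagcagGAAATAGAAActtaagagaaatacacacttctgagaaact
IFITM3, chr11:320861-320980, minus strand: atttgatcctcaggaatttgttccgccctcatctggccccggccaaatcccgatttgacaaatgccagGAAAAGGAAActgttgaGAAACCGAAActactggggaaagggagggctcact
BST2, chr19:17405693-17405812, minus strand: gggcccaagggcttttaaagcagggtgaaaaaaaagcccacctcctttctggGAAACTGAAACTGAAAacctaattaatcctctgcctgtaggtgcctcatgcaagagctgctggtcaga
IFIT1, chr10:89392458-89392577, plus strand: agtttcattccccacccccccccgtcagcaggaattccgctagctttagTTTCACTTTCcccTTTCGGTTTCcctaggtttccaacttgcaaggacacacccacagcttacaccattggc
IFIH1, chr2:162318776-162318895, minus strand: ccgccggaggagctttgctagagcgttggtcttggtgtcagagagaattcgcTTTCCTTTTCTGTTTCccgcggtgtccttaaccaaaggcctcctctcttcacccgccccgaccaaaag
In BST2 and IFIH1 a pair of cores overlap, and in IFIH1 a further core lies nearer to the start, outside the stretch shown. The IFITM1 window also holds a further core that does not lie wholly before the start, and it is not marked. Promoter windows of 250 bases before to 50 after the start were at hand for 31 of the 39 genes, as 41 windows because some genes have several starts. The core was present in the windows of 22 of these 31 genes (71.0%), against 4.38% of all 27305 genes with a window.

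Expression was read as Cy-3 intensity on 1 single-color Agilent array per clone. A level below is the log2 of the processed intensity minus the 75th percentile of its own array, so 0 is a fairly bright probe, and a step of 1 is a 2-fold difference. A signal is called well above background by the scanner software. The lowest level that was well above background lay between -6.01 and -5.51, and 63.2% to 68.2% of the 34127 probes passed on an array. The 9 marker genes of HEK293 cells on the list were well above background on all 8 arrays, whereas 4 of 7 immune cell markers also were, with CD3E and CD74 on 0 arrays. The probes of TET1 (2.61 to 2.94) and MBD2 (1.25 to 1.65) did not separate the constructs, and where they lie relative to the expressed domains is not known here, so they do not check the labels. One slide held the arrays of empty vector and TET1-CDwt, and the other held those of both MBD fusions. Slide and construct cannot be told apart where a fusion is compared with empty vector or TET1-CDwt.

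A signal well above background on all 8 arrays was found for 17 of the 38 members, against 68.8% of all named genes. These were RIGI, DHX58, MAVS, STAT2, IFIT1, IFIT5, OAS3, IFITM1, IFITM2, IFITM3, ISG15, USP18, HERC5, ISG20, IFI6, IFI35, and LGALS3BP. Another 11 members were not well above background on any array, in any construct, and these were IFIH1, OAS1, OASL, MX1, RSAD2, SAMD9, SAMD9L, TRIM22, IFI44, IFI44L, and EPSTI1. The share with no signal was 28.9% of the members, against 20.4% of all named genes. The members with no signal above background include genes whose transcripts are among the strongest markers of an interferon response in other cells, such as MX1, a GTPase that traps influenza virus, and RSAD2, which encodes viperin. Within constructs, 23 members (60.5%) were well above background on both arrays of empty vector, against 72.6% of all named genes. For TET1-CDwt it was 20 members (52.6%, against 72.2%), for MBD-TET1-CDwt 19 (50%, against 70.3%), and for MBD-TET1-CDmut 19 (50%, against 70.8%). An array with a dim probe gives only an upper limit, so a level below background is not evidence that the transcript is missing.

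**Figure D1:**
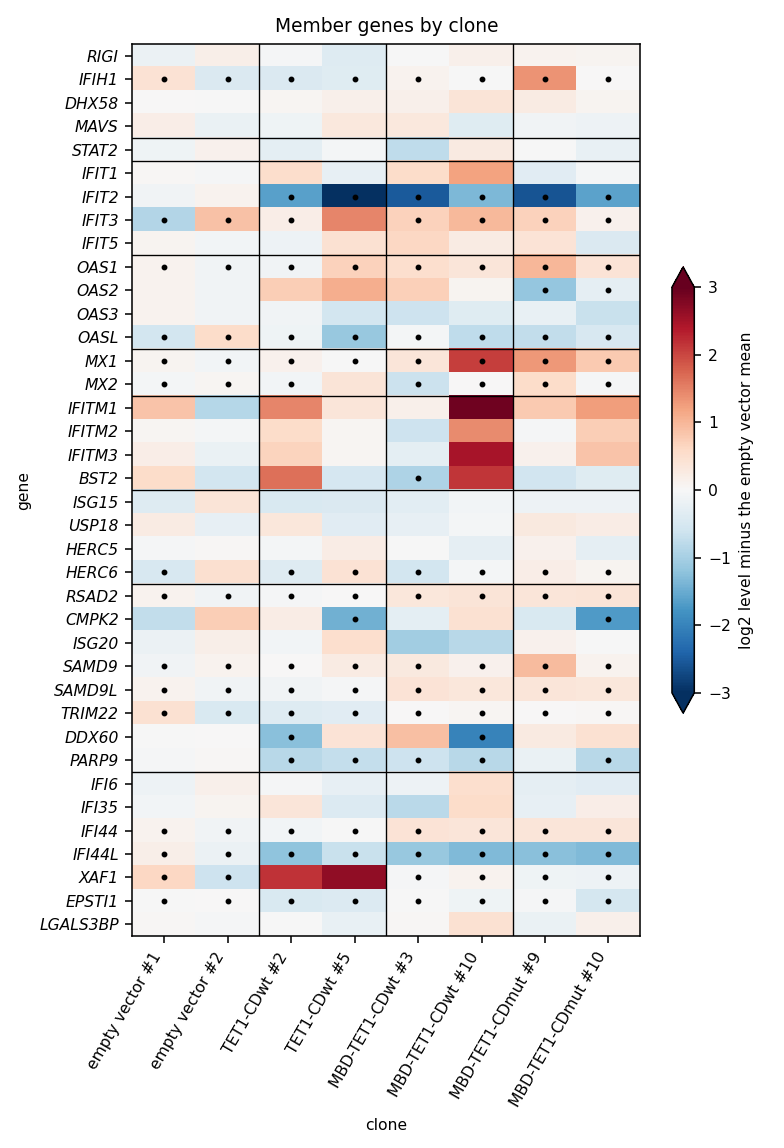
Level of each of the 38 member genes in each clone minus the mean of the 2 empty vector clones (log2, color scale from -3 to 3), with genes as rows in blocks by role and clones as columns. A dot marks a signal that was not well above background. IFITM1, IFITM3, and BST2 stand out in MBD-TET1-CDwt #10, XAF1 is above background only in both TET1-CDwt clones, and IFIT2 only in both empty vector clones.

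CpG, the dinucleotide that carries DNA methylation, was counted in the promoters of members with and without a signal, as a description with no test. The 14 windows of members above background on all 8 arrays held a median of 15.5 CpGs (range 3 to 34). The 13 windows of members above background on no array, which belong to 9 genes, held a median of 4 (range 0 to 45), so the ranges overlapped. Over all named genes the medians were 25 for those above background on all 8 arrays and 5 for those above background on none, so the members follow the same order as other genes. The windows of 4 members whose differences are described below held 3 CpGs for IFITM1, 8 for IFITM3, 2 for BST2, and 4 for IFIT1. The core of the response element was in 10 of the 14 genes with windows that were above background everywhere and in 7 of the 9 that were above background nowhere. These counts are a description of sequence, and methylation was not measured on these arrays.

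RNA sensors were compared first. The levels of RIGI were -2.76 and -2.40 in empty vector #1 and #2, -2.61 and -2.96 in TET1-CDwt #2 and #5, -2.59 and -2.42 in MBD-TET1-CDwt #3 and #10, and -2.47 and -2.49 in MBD-TET1-CDmut #9 and #10. Both fusions and TET1-CDwt #2 lay within the range of the vector clones, and TET1-CDwt #5 was the lowest. MBD-TET1-CDwt exceeded the other 6 clones by 0.11, which an exact two-sided permutation test over the 28 ways to choose 2 of 8 clones did not separate from 0 (p = 0.643, adjusted over 4 genes 0.964, smallest p the design allows 0.0357). This test treats the clones of the other constructs on both slides as alike, and a single gene could not reach 0.05 in it after adjustment. A second, dimmer RIGI probe was at -5.07 and -4.38 in empty vector and -3.91 and -4.83 in TET1-CDwt. It was at -5.04 and -4.11 in MBD-TET1-CDwt and -5.16 and -5.84 in MBD-TET1-CDmut, where #10 was below background. On this probe both active-fusion clones lay above both inactive-fusion clones (limma difference 0.92 ± 0.47, SE, adjusted p = 0.762). On the first probe that difference was -0.02.

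MDA5, the other helicase that signals through MAVS, gave no usable signal. The IFIH1 levels lay between -7.80 and -6.02, and none was well above background, so no difference is read from them. DHX58 encodes LGP2, a helicase that modulates the other sensors. Its levels were -3.86 and -3.89 in empty vector, -3.81 and -3.71 in TET1-CDwt, -3.73 and -3.48 in MBD-TET1-CDwt, and -3.62 and -3.80 in MBD-TET1-CDmut. MBD-TET1-CDwt #10 was the highest, yet MBD-TET1-CDwt #3 was inside the range of the other constructs. The mean difference from the other 6 clones was 0.18 (exact permutation test, p = 0.143, adjusted 0.571). Normexp, a model-based background correction with an offset of 50 added to the intensities, was run as an alternative. With it the DHX58 difference of the active from the inactive fusion turned from 0.11 to -0.50.

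MAVS, the adaptor of both sensors, was bright in every clone. Its levels were 1.54 and 1.16 in empty vector, 1.21 and 1.66 in TET1-CDwt, 1.66 and 0.98 in MBD-TET1-CDwt, and 1.24 and 1.19 in MBD-TET1-CDmut. The highest values came from TET1-CDwt #5 and MBD-TET1-CDwt #3 and the lowest from MBD-TET1-CDwt #10, and the groups overlapped (exact permutation test of MBD-TET1-CDwt against the rest, difference -0.01, p = 0.964). On a second MAVS probe, also bright in every clone, MBD-TET1-CDwt #3 and #10 were at -1.10 and -0.79 and the other 6 clones between -0.62 and -0.42, so there both MBD-TET1-CDwt clones were the lowest. Its remaining probe ranged from -1.58 to -1.06, and its groups overlapped. STAT2, which carries the interferon signal to the nucleus, was at 1.995 and 2.253 in empty vector, 1.83 and 2.06 in TET1-CDwt, 1.37 and 2.40 in MBD-TET1-CDwt, and 2.11 and 1.90 in MBD-TET1-CDmut. Both extremes belonged to the MBD-TET1-CDwt clones, which differed 2.04-fold from each other. The difference between MBD-TET1-CDwt and MBD-TET1-CDmut was -0.12 ± 0.34 (SE, limma adjusted p = 0.961), and it was 0.065 with normexp and ranged from -0.63 to 0.40 with single clones left out.

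**Figure D2:**
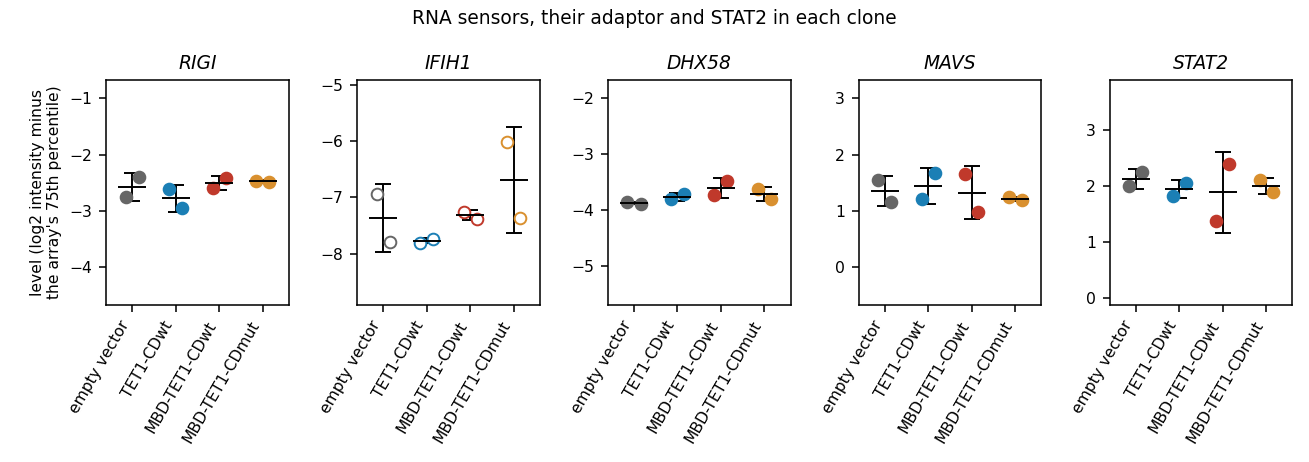
Level of the 3 RNA sensor genes, MAVS, and STAT2 (y axis, log2 intensity minus the 75th percentile of the array) in the 2 clones of each construct (x axis). Filled points were well above background and open points were not, bars are the mean and SD of 2 clones, and every panel spans the same height in log2 units. The IFIH1 points are all open.

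Across constructs, no member passed the adjusted threshold. limma was fitted over 22530 probes on all 8 arrays, and it tested the 24 members that passed detection on both arrays of 1 construct or more. At an adjusted p under 0.05 it called 0 of 24 members in each of the 5 comparisons. Of all probes it called 0% in TET1-CDwt against empty vector, 0.115% in MBD-TET1-CDwt against empty vector, 0% in MBD-TET1-CDmut against empty vector, 0.102% in MBD-TET1-CDwt against MBD-TET1-CDmut, and 0.115% in MBD-TET1-CDwt against TET1-CDwt. At an unadjusted limma p under 0.05, either direction, the members numbered 4 in TET1-CDwt against empty vector (2.5% of all probes), 4 in MBD-TET1-CDwt against empty vector (6.6%), and 1 in MBD-TET1-CDmut against empty vector (2.68%). They numbered 3 in MBD-TET1-CDwt against MBD-TET1-CDmut (6.84%) and 2 in MBD-TET1-CDwt against TET1-CDwt (4.74%). As shares of the 24 members these counts are 16.7%, 16.7%, 4.17%, 12.5%, and 8.33%, each larger than the share of all probes but each resting on 1 to 4 genes. The genes were OAS2 and XAF1 (higher) and IFIT2 and PARP9 (lower) in the first comparison, IFIT1 (higher) and IFIT2, ISG20, and PARP9 (lower) in the second, and IFIT2 (lower) in the third. They were IFIT1 and OAS2 (higher) and ISG20 (lower) between the fusions, and ISG20 and XAF1 (lower) against TET1-CDwt. IFIT2 and PARP9 entered the test only through empty vector, and XAF1 only through TET1-CDwt, the constructs where they were highest. Their dim levels elsewhere were used as measured. IFIT1, OAS2, and ISG20, the genes between the fusions, did not enter through 1 construct alone. Of these, OAS2 was dim in both MBD-TET1-CDmut clones. The filter was the same for all probes, and no test compared the shares. The larger shares are therefore no support for a difference of the members.

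With the scaling used here, the members did not shift as a group by more than their spread. The median difference of the 24 tested members was 0.05 in MBD-TET1-CDwt against empty vector, where all 14409 genes tested had a median of 0.01. It was 0.04 for TET1-CDwt and -0.09 for MBD-TET1-CDmut against empty vector, and 0.11 for MBD-TET1-CDwt against MBD-TET1-CDmut. The median level over members varied between clones of a construct with an SD of 0.15, which is larger than each of these. Background correction by normexp gave other values, with member medians against empty vector of -0.86 in TET1-CDwt, -0.64 in the active fusion, and -0.32 in the inactive one, each larger than this spread. The medians of all genes tested were then -0.11, -0.09, and -0.05. The sign in MBD-TET1-CDwt depended on the clone. Relative to the empty vector mean, clone #3 of this construct had a member median of -0.20 and clone #10 one of 0.20, while that of all genes tested was 0.03 and -0.02.

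**Figure D3:**
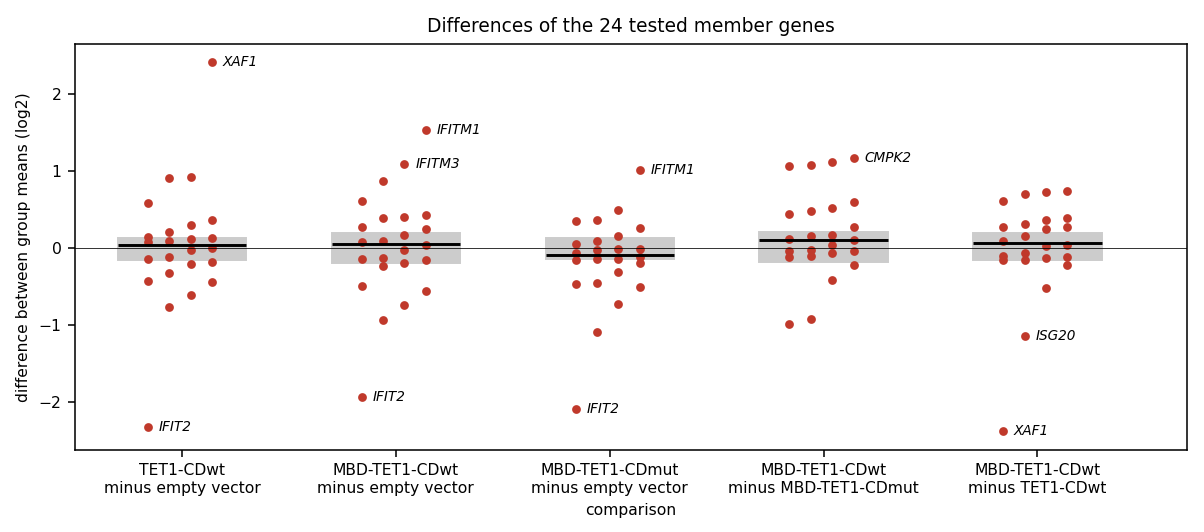
Difference between group means (y axis, log2) of the 24 tested members in the 5 comparisons (x axis), with 1 point per gene, the members' median as a line, and the range from the first to the third quartile of all 14409 genes tested as a grey box. The medians lie between -0.09 and 0.11, and some points far from the box are named.

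By size, 6 differences of at least 2-fold were found among the 38 members. A difference counted only if the higher construct passed detection on each of its arrays. In MBD-TET1-CDwt against empty vector 2 members were higher (1.13% of all genes) and 0 lower (0.73%), the 2 being IFITM1 and IFITM3 (5.26% of the members). In MBD-TET1-CDmut against empty vector IFITM1 alone was higher (0.314%) and 0 were lower (0.242%). In TET1-CDwt against empty vector 0 were higher (0.257%) and 1, IFIT2, was lower (0.257%). In MBD-TET1-CDwt against MBD-TET1-CDmut, the comparison within 1 slide, IFIT1 alone was higher (1.15%) and 0 were lower (0.941%). In MBD-TET1-CDwt against TET1-CDwt 0 were higher (0.92%) and 1, ISG20, was lower (0.637%). A single gene is 2.63% of the members. The counts of higher members depended on single clones. Without MBD-TET1-CDwt #10 they were 0 in all 3 comparisons of that construct, and without MBD-TET1-CDwt #3 they were 5 against empty vector, 6 against MBD-TET1-CDmut, and 6 against TET1-CDwt. Without empty vector #2 no member counted as 2-fold higher in either fusion against empty vector, without MBD-TET1-CDmut #10 none did in that fusion, and without TET1-CDwt #2 there were 4 against TET1-CDwt. In TET1-CDwt against empty vector, 3 members were higher without empty vector #1, 2 without TET1-CDwt #2, and 2 without TET1-CDwt #5. The background correction, with its offset, mattered as well. With normexp 9 members were lower in TET1-CDwt and 6 in MBD-TET1-CDwt against empty vector, and 0 were higher or lower by this size between the fusions.

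The 4 membrane restriction factors were each highest in the same clone, MBD-TET1-CDwt #10. IFITM1, IFITM2, and IFITM3 encode small membrane proteins that block fusion of enveloped viruses, and BST2 encodes tetherin, which holds budding virions at the cell surface. The levels of IFITM1 were 0.36 and -1.36 in empty vector #1 and #2, 0.97 and -0.14 in TET1-CDwt #2 and #5, -0.35 and 2.41 in MBD-TET1-CDwt #3 and #10, and 0.28 and 0.75 in MBD-TET1-CDmut #9 and #10. MBD-TET1-CDwt #10 was the highest of the 8, but MBD-TET1-CDwt #3 was lower than empty vector #1, so the groups overlapped. The mean was 2.90-fold above empty vector (limma difference 1.53 ± 0.95, SE, adjusted p = 0.864) and 2.03-fold above it in MBD-TET1-CDmut (1.02 ± 0.95, adjusted p = 0.9998). Without MBD-TET1-CDwt #10 the first difference was 0.15, and without MBD-TET1-CDwt #3 it was 2.92. With normexp the differences from empty vector were 0.80 for the active fusion and 0.22 for the inactive one. A second IFITM1 probe gave -0.78 and -2.40 in empty vector, -0.17 and -1.24 in TET1-CDwt, -1.38 and 1.19 in MBD-TET1-CDwt, and -0.79 and -0.42 in MBD-TET1-CDmut, with the same highest and lowest clones.

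IFITM3 ran in the same direction. Its levels were 0.91 and 0.51 in empty vector, 1.38 and 0.78 in TET1-CDwt, 0.42 and 3.20 in MBD-TET1-CDwt, and 0.85 and 1.58 in MBD-TET1-CDmut. MBD-TET1-CDwt held both the highest and the lowest clone. Its mean was 2.13-fold above empty vector (limma difference 1.09 ± 0.81, SE, adjusted p = 0.888), and without MBD-TET1-CDwt #10 the difference turned to -0.30. IFITM2 was at 1.58 and 1.48 in empty vector, 2.07 and 1.59 in TET1-CDwt, 0.90 and 2.95 in MBD-TET1-CDwt, and 1.49 and 2.27 in MBD-TET1-CDmut, again with both extremes in MBD-TET1-CDwt. The IFITM genes are close paralogs, and how far their probes cross-hybridize is not known here, so their 3 readings may not be separate.

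BST2 showed a wider gap between clones of one construct than the IFITM genes did. The levels were -3.99 and -5.11 in empty vector, -2.90 and -5.04 in TET1-CDwt, -5.48 and -2.40 in MBD-TET1-CDwt, and -5.12 and -4.91 in MBD-TET1-CDmut, and MBD-TET1-CDwt #3 was not well above background. One clone of TET1-CDwt and one of MBD-TET1-CDwt were high. Of their partners, TET1-CDwt #5 lay between the vector clones and MBD-TET1-CDwt #3 below both. MBD-TET1-CDwt #10 exceeded #3 at least 8.43-fold in BST2, and IFITM1, IFITM3, and IFITM2 in #10 were 6.79-fold, 6.87-fold, and 4.14-fold above #3. A gap of at least 4-fold in this direction was thus found for 4 members of 38, which is 10.5% of the members, against 1.21% of all genes. With normexp the log2 gaps were 0.96 for BST2, 2.57 for IFITM1, 2.65 for IFITM3, and 1.94 for IFITM2. BST2 was 4.43-fold higher in TET1-CDwt #2 than in #5, the only member 4-fold apart in that direction (0.499% of all genes).

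These genes shared an order of the clones. In each of the 4 constructs, IFITM1, IFITM2, IFITM3, and BST2 were all higher in the same clone of the pair, namely clone #1 for the vector, #2 for the catalytic domain alone, and #10 for each of the fusions. Of the other tested members, IFIT1 and LGALS3BP also had this order, which was found for 12.4% of the genes tested. Because the order was read from the restriction factors, these counts are a description. The median member was 0.25 higher in MBD-TET1-CDwt #10 than in #3, with 18 of 24 members higher, whereas the median of all genes tested was -0.02. A gene that is no member also stood apart in one of these clones. NEFM, a neurofilament gene on the HEK293 marker list, was at 0.32 in MBD-TET1-CDwt #3 and between 2.29 and 3.23 elsewhere. Its part in the results was not tested.

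**Figure D4:**
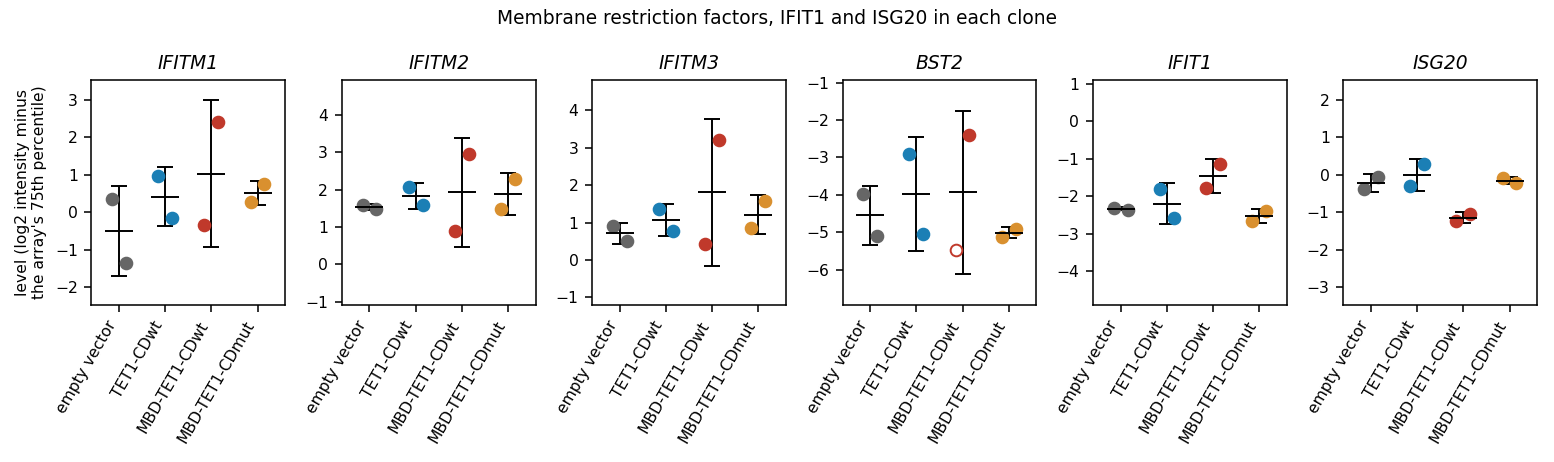
Level of IFITM1, IFITM2, IFITM3, BST2, IFIT1, and ISG20 (y axis, log2 intensity minus the 75th percentile of the array) in the 2 clones of each construct (x axis, in order of clone number). Open points were not well above background, bars are the mean and SD of 2 clones, and every panel spans the same height. The 4 restriction factors are high in MBD-TET1-CDwt #10 but not in #3, whereas both MBD-TET1-CDwt clones lie above the others for IFIT1 and below them for ISG20.

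Both MBD-TET1-CDwt clones lay on the same side of the other 6 for IFIT1 and ISG20, though no difference passed the test. How many of all genes show such a pattern was not counted, so here and below it is only a description. IFIT1 encodes a protein that binds viral RNA lacking a methylated cap. Its levels were -2.30 and -2.37 in empty vector, -1.82 and -2.59 in TET1-CDwt, -1.78 and -1.14 in MBD-TET1-CDwt, and -2.66 and -2.40 in MBD-TET1-CDmut. Both MBD-TET1-CDwt clones lay above all of the others, but they were 1.56-fold apart, and TET1-CDwt #2 was close beneath #3. The mean was 2.10-fold above MBD-TET1-CDmut (limma difference 1.07 ± 0.32, SE, adjusted p = 0.611) and 0.88 ± 0.32 above empty vector on the log2 scale (adjusted p = 0.721), and both missed the adjusted threshold. With normexp the difference from MBD-TET1-CDmut was 0.13.

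ISG20, an exonuclease that degrades RNA, went the other way. Its levels were -0.38 and -0.05 in empty vector, -0.30 and 0.30 in TET1-CDwt, -1.25 and -1.05 in MBD-TET1-CDwt, and -0.08 and -0.23 in MBD-TET1-CDmut. Both MBD-TET1-CDwt clones were below all 6 of the others, with no overlap. The mean was 2.21-fold below TET1-CDwt (limma difference -1.15 ± 0.25, SE, adjusted p = 0.520), -0.99 ± 0.25 from MBD-TET1-CDmut (adjusted p = 0.508), and -0.93 ± 0.25 from empty vector (adjusted p = 0.543). None of the 3 passed the threshold over all probes.

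The other IFIT genes gave a different picture. IFIT2 was at -4.91 and -4.68 in empty vector and between -7.81 and -6.15 in the other 6 clones. It was well above background in both vector clones and in none of the 6, so the groups did not overlap in detection. Relative to empty vector, IFIT2 was lower by at least 2.17-fold with TET1-CDwt, 1.64-fold with MBD-TET1-CDwt, and 1.67-fold with MBD-TET1-CDmut (limma adjusted p = 0.9999, 0.633, and 0.9998). The lower signal was thus also seen with the inactive fusion. A second IFIT2 probe lay between -8.14 and -6.72 on all arrays. IFIT3 passed on 1 array, TET1-CDwt #5 (-5.29), and IFIT5, bright on all arrays, ranged from -1.59 to -0.54.

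OAS proteins make 2′-5′ oligoadenylates that activate RNase L. OAS1 and OASL were not above background on any array. OAS2 was at -5.29 and -5.48 in empty vector, -4.65 and -4.29 in TET1-CDwt, -4.67 and -5.30 in MBD-TET1-CDwt, and -6.56 and -5.66 in MBD-TET1-CDmut. It was above background in the first 3 constructs and in neither MBD-TET1-CDmut clone, and MBD-TET1-CDwt exceeded MBD-TET1-CDmut at least 1.46-fold (limma adjusted p = 0.643), but with normexp the difference turned to -0.64. Its other 2 probes lay between -8.12 and -5.86, at or under the edge of detection. OAS3 ranged from -5.04 to -4.26 with empty vector #1 the highest and MBD-TET1-CDmut #10 the lowest.

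Of ISG15, a ubiquitin-like protein, and the enzymes that conjugate or remove it, 3 of 4 genes were above background on all 8 arrays. ISG15 itself ranged from 0.58 to 1.43, with empty vector #2 the highest, and HERC5, the main ISG15 ligase, ranged from 0.25 to 0.74. USP18, which removes ISG15 and damps interferon signaling, was at 0.15 and -0.33 in empty vector, 0.24 and -0.43 in TET1-CDwt, -0.33 and -0.16 in MBD-TET1-CDwt, and 0.19 and 0.14 in MBD-TET1-CDmut. Among the tested genes of its group it had the largest difference between the fusions, -0.41 ± 0.28 (SE, limma adjusted p = 0.828), which is within the spread of the vector clones. HERC6 passed on 1 array only, empty vector #2 (-5.80).

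The remaining members were mostly dim. CMPK2, a mitochondrial nucleotide kinase, was at -5.27 and -3.81 in empty vector, -4.33 and -5.98 in TET1-CDwt, -4.83 and -4.07 in MBD-TET1-CDwt, and -5.01 and -6.25 in MBD-TET1-CDmut. Both MBD-TET1-CDwt clones were above both MBD-TET1-CDmut clones but between the vector clones. TET1-CDwt #5 and MBD-TET1-CDmut #10 were not well above background, so no size is given for the difference between the fusions. IFI6, a mitochondrial protein, was at -2.11 and -1.82 in empty vector, -1.99 and -2.21 in TET1-CDwt, -2.13 and -1.45 in MBD-TET1-CDwt, and -2.24 and -2.30 in MBD-TET1-CDmut. MBD-TET1-CDwt #10 was the highest, and the difference between the fusions was 0.48 ± 0.26 (SE, limma adjusted p = 0.780). IFI35 ranged from -3.01 to -1.66, with both extremes in MBD-TET1-CDwt, and LGALS3BP from -0.47 to 0.22. DDX60 was at -4.50 in MBD-TET1-CDwt #3 and not above background in #10 (-7.41).

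XAF1 and PARP9 were chosen after their values were seen. XAF1, a proapoptotic gene, was at -5.30 and -4.79 in the TET1-CDwt clones and was not above background in the other 6, where it lay between -8.08 and -6.85. TET1-CDwt exceeded empty vector at least 1.80-fold (limma adjusted p = 0.9999) and MBD-TET1-CDwt at least 1.37-fold (adjusted p = 0.233). With normexp the difference from empty vector turned to -1.44. With single clones left out, the log2 difference from empty vector ranged from 1.80 to 3.03. These values use the vector levels as measured, although both were below background. A second XAF1 probe, between -8.16 and -6.50, was below background throughout. PARP9 was at -5.01 and -4.94 in empty vector and between -5.82 and -5.17 elsewhere. MX2 passed on 1 array only, TET1-CDwt #5 (-5.72).

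The rest of the pathway was read from 8 lists that hold 129 further genes, 115 of them with a probe and 67 tested, and limma called 0 of them in each comparison. Of 17 interferon genes with a probe, 13 were above background on no array, IFNB1 (-7.77 to -5.98) among them, against 20.4% of all named genes. Only the probes of IFNA4 and IFNL2 were above background on all 8 arrays, at -4.37 to -3.53 and -4.04 to -3.61, without separating the constructs. The interferon receptors and their kinases were above background on all 8 arrays for 9 of 9 genes, none of which differed 2-fold.

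IRF7, the master regulator of type I interferon production, had the largest difference on these lists. Its levels were -4.28 and -3.63 in empty vector, -0.90 and -4.72 in TET1-CDwt, -0.75 and 1.89 in MBD-TET1-CDwt, and -1.19 and -1.54 in MBD-TET1-CDmut. All 4 clones of the fusions and TET1-CDwt #2 were above the vector clones, and both MBD-TET1-CDwt clones were above every other clone. The mean was 23.1-fold above empty vector in MBD-TET1-CDwt and 6.02-fold above it in MBD-TET1-CDmut, and the active fusion was 3.83-fold above the inactive one (limma adjusted p = 0.567 for the first and 0.823 for the last). Of the interferon genes, some of which IRF7 is known to induce, 13 were above background on no array, as given above. These 13 include IFNG, which is not a type I interferon. IFNA7 (-4.84) and IFNL1 (-4.05) were above background in MBD-TET1-CDmut #9 only. A dim probe gives only an upper limit, and whether IRF7 acted on these genes was not tested.

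The feedback inhibitors SOCS1 and SOCS3 and the interferon-stimulated gene PARP10 were the other genes of these lists that were 2-fold or more higher by size in MBD-TET1-CDwt against empty vector or MBD-TET1-CDmut. SOCS1, an inhibitor of JAK kinases, was at -4.44 and -4.50 in empty vector, -4.70 and -3.63 in TET1-CDwt, -3.96 and -2.80 in MBD-TET1-CDwt, and -4.25 and -4.52 in MBD-TET1-CDmut. SOCS3 was at -4.76 and -5.09, -4.61 and -3.75, -3.97 and -3.08, and -4.63 and -4.94 in the same order. In both genes TET1-CDwt #5 overlapped the MBD-TET1-CDwt clones, and limma gave adjusted p = 0.756 and 0.565 against empty vector. PARP10 was at -4.59 and -3.99 in empty vector, -3.62 and -4.71 in TET1-CDwt, -3.51 and -2.81 in MBD-TET1-CDwt, and -4.82 and -4.79 in MBD-TET1-CDmut, with both MBD-TET1-CDwt clones the highest. TRIM5, a restriction factor that binds retroviral capsids, was at -2.72 and -2.16 in empty vector, -2.73 and -2.28 in TET1-CDwt, -4.39 and -3.14 in MBD-TET1-CDwt, and -2.42 and -1.98 in MBD-TET1-CDmut, with both MBD-TET1-CDwt clones the lowest. LAMP3, a lysosomal membrane protein, was at -2.96 and -3.28, -2.67 and -3.43, -4.37 and -2.93, and -2.31 and -2.63 in the same order, and its MBD-TET1-CDwt clones overlapped the vector clones. Between the active and the inactive fusion, the log2 differences were 1.64 for PARP10, -1.57 for TRIM5, and -1.18 for LAMP3 (limma adjusted p = 0.508, 0.568, and 0.722). Of 12 genes listed as endogenous retroviral, 6 had a probe. ERVW-1, ERVFRD-1, ERVV-2, and HHLA1, 4 of these 6, were above background on no array, against 20.4% of all named genes. ERV3-1 was above background in MBD-TET1-CDmut #9 only (-4.87), and HHLA2 was above background on all 8 arrays. HHLA1 and HHLA2 are host genes and not retroviral ones. All 6 are single named transcripts, and expression of the retroviral repeats at large was not examined.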

How the data were processed

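Gene expression was measured by the authors in 8 stable HEK293T lines with 1 single-color array each. The deposited intensity values are the background-subtracted processed signal of Agilent Feature Extraction (version 9.5.1 per the submitters' processing notes, 10.7.3.1 per the file headers), without scaling between arrays. The deposited value table of the series is identical to them. Control spots and outlier spots (213 to 269 per array) were left out, the 75th percentile of each array was subtracted after log2, and spots of one probe were averaged. Of 34127 probes, 25422 were named through RefSeq accessions (GRCh38.p14, names and promoter windows), and a gene is represented by its brightest probe over all arrays. Other probes are given where they differ. Groups were taken from the sample labels, and clones are the replicates. limma (3.58.1, R 4.3.3) was fitted with 4 group means on all arrays (4 residual degrees of freedom, Benjamini-Hochberg over 22530 probes), and was tested on simulated data. A size count asked for both arrays of the higher group well above background, with a dim signal set at the lowest level above background on its array (which makes a fold a bound). Sensors were tested by exact permutation. Python 3.11.15, numpy 2.4.6, pandas 2.3.3, and matplotlib 3.10.9 were used. The members and lists were chosen with earlier results of these data known. Genes named with all values are the sensors, STAT2, members counted by size, members with clones 4-fold apart, the member of each role with the largest difference between the fusions, and pathway genes at least 2-fold apart by size in MBD-TET1-CDwt against empty vector or MBD-TET1-CDmut. Alternatives were other background correction, scaling, filters, floors, probes, fits, and leaving out each clone. The precision is limited by 2 arrays per group, and slide was not fitted because no group spans both slides.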

Additional observations from a re-analysis of the deposited data

How the results depend on the processing

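The 24 results that answer a comparison were recomputed 363 times, and 302 of these kept the value within the spread or within 1.5 times the count. Some of the 302 could not change, so this tally is not a measure of stability. The deposited value table is identical to the values used, and a clone outside a comparison does not enter its counts by size. Normexp was run on median signals because mean signals were not in the tables. An offset of 50 was added to every corrected intensity, while the 75th percentiles of the arrays lay between 328 and 527 in the main processing. Of the alternatives, background correction by normexp changed most. It put the member medians against empty vector at -0.86 in TET1-CDwt, -0.64 in the active fusion and -0.32 in the inactive one, and at -0.34 for MBD-TET1-CDwt against MBD-TET1-CDmut and 0.26 against TET1-CDwt, while it put the medians of all genes tested at -0.11, -0.09, -0.05, -0.08 and 0.08. It counted 9 members as 2-fold lower in TET1-CDwt and 6 in MBD-TET1-CDwt against empty vector, 1 as higher in MBD-TET1-CDwt, and 0 in place of the single members between the fusions, in MBD-TET1-CDmut and against TET1-CDwt. Between the fusions it turned the differences to -0.50 for DHX58, 0.065 for STAT2, -0.64 for OAS2 and -0.34 for BST2, and XAF1 in TET1-CDwt to -1.44. The cause was not tested. Quantile normalization turned RIGI to 0.0061 between the fusions. In TET1-CDwt against empty vector, quantile and median scaling counted 2 members as higher, and quantile normalization, the filter on all 8 arrays and the mean of all probes counted 0 as lower. With dim signals left as measured, which drops the limit on dim values, against empty vector there was 1 higher member for TET1-CDwt, 1 lower for MBD-TET1-CDwt and 2 lower for the inactive fusion, with 3 higher between the fusions and 2 lower against TET1-CDwt. The mean of all probes gave 1 lower member in MBD-TET1-CDmut and 2 higher between the fusions, where having no filter on dim probes also gave 2. At 5-fold, and where every clone had to pass every other, all of the counts were 0.
Leaving out each clone in turn moved the member median from -0.20 to 0.20 in MBD-TET1-CDwt against empty vector, from -0.11 to 0.33 against MBD-TET1-CDmut and from -0.14 to 0.37 against TET1-CDwt. The lowest value came without MBD-TET1-CDwt #10 and the highest without #3 in all 3. Counts of higher members ranged against empty vector from 0 to 3 in TET1-CDwt, from 0 to 5 in MBD-TET1-CDwt and from 0 to 1 for the inactive fusion, and from 0 to 6 in MBD-TET1-CDwt against MBD-TET1-CDmut and against TET1-CDwt. Counts of lower members ranged against empty vector from 1 to 2 in TET1-CDwt and from 0 to 1 in each fusion, from 0 to 1 between the fusions and from 1 to 2 against TET1-CDwt. The clones whose absence added 1 lower member were empty vector #1 and TET1-CDwt #2 for TET1-CDwt, empty vector #1 and MBD-TET1-CDwt #10 for the active fusion, either vector clone for the inactive one, MBD-TET1-CDwt #10 and MBD-TET1-CDmut #10 between the fusions, and MBD-TET1-CDwt #10 against TET1-CDwt. For XAF1 in TET1-CDwt against empty vector the log2 difference ranged from 1.80 to 3.03, with the dim vector levels used as measured. Without a clone of MBD-TET1-CDwt the fusions' difference changed sign in 5 genes, with ranges over all clones left out of -0.11 to 0.063 for RIGI, -0.015 to 0.23 for DHX58, -0.23 to 0.45 for MAVS, -0.63 to 0.40 for STAT2 and -0.46 to 2.62 for BST2, and IFITM3 against empty vector ranged from -0.30 to 2.48. No paired analysis was possible because clone numbers of different constructs do not mark shared samples, and the groups share fewer than 2 numbers. A dim probe limits what can be seen for the 11 members above background on no array.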
